A study of Homo sapiens with 6 samples.

Results

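AP-1 is a family of transcription factors that bind DNA as pairs. The 10 genes described here are JUN, JUNB, JUND, FOS, FOSB, FOSL1, FOSL2, BATF3, MAFF and MAFK, taken from the deposited tables by symbol, out of 38648 genes listed. The list was chosen by family name with the measured levels and the PRDM16 against NC fold changes of these libraries already known. Each symbol stood on 1 row, with no second listing. RNA sequencing was done on the human podocyte line HPC, in which podocytes are the epithelial cells that wrap the filtering capillaries of the kidney. Of the 6 libraries, 3 came from cells given a lentivirus to overexpress PRDM16, a zinc finger transcription factor, and the other 3 from cells given NC lentivirus. All were of the WT genotype and were kept for 24 h in high glucose, and cells in normal glucose were not analysed here. No label states the lentiviral promoter, its dose or the glucose concentration. The labels do not say whether the libraries came from separate cultures, so errors and p-values measure only how these samples vary, and that may be technical.

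PRDM16 itself had 11, 18 and 24 counts in the PRDM16 libraries and 0 in each NC library. Pooled over each group, PRDM16 was at least 13.9-fold higher in PRDM16 libraries, with a floor of 3 counts taken for the NC group. In TPM, the deposited unit that is scaled for gene length and library size, it stayed between 0.163 and 0.190 in the PRDM16 libraries. The labelled cell type was checked on its markers: 3 of 10 podocyte genes averaged at least 1 TPM (PODXL, SYNPO and CD2AP), while NPHS1 and WT1, which mark the mature podocyte, were under 1 TPM. All 6 markers of parietal and developing kidney epithelium passed that level, as did 1 of 5 proximal tubule, 0 of 5 endothelial, 3 of 5 mesangial and fibroblast and 1 of 5 leukocyte markers. The leukocyte marker above it was CD68, a lysosomal protein, at 273 ± 13.4 TPM in PRDM16 and 253 ± 13.1 TPM in NC libraries (SD, n = 3 each), which overlapped in TPM. Once scaled by TMM, CD68 was higher without overlap in PRDM16 libraries, as were 12.2% of single genes. Its log2 fold change was 0.24 ± 0.11 (SE), and 0.09 with the trend of length and GC content of each library removed. PTPRC averaged 0.182 TPM and CD3E had 0 counts. Markers of parietal and developing kidney epithelium summed to 5725 to 6363 TPM in PRDM16 and 5545 to 5968 TPM in NC libraries. These ranges overlapped. The summed podocyte markers were at 119.5 to 142 TPM in the PRDM16 libraries and 149 to 205 TPM in the NC libraries, without overlap, where 17.3% of single genes were lower without overlap in TPM. CD2AP carried most of that sum, with 134 TPM in NC library 2 and overlapping groups in TPM. Once scaled by TMM, CD2AP was lower without overlap in PRDM16 libraries, as were 8.77% of single genes. Its log2 fold change was -0.35 ± 0.14 (SE), and -0.09 with the trend of length and GC content of each library removed. PODXL was lower without overlap in TPM, at 49.0 to 49.5 TPM in PRDM16 and 52.9 to 62.7 TPM in NC libraries. Its groups overlapped once scaled by TMM, and SYNPO had a log2 fold change of 0.13. The part of these markers in the results below was not tested. NC library 2 stood apart from the other libraries, with a chi-square per degree of freedom over genes of 25.3 to 61.0 in its pairs and 9.1 to 24.7 in all other pairs, of which PRDM16 library 3 and NC library 1 were the closest. In bulk RNA, fewer cells of a type and less RNA per cell cannot be told apart.

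Jun and Fos proteins share a basic region that touches DNA and a leucine zipper that holds the pair together. Jun proteins pair with themselves or with Fos proteins, whereas Fos proteins need a Jun partner. The pairs bind the AP-1 site, TGANTCA, or the closely related cAMP response element, TGACGTCA. FOS, FOSB and JUN are classic immediate early genes, switched on within minutes of a stimulus, and FOSL1 and FOSL2 encode Fos proteins without the strong activation domain of FOS. MAFF and MAFK are small MAF proteins, which lack an activation domain and pair with factors such as NFE2L2 and BACH1, and BATF3 is a short Jun partner known from dendritic cells.

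The promoters of the Jun genes and of FOS are shown because the balance of the Jun genes differed between the lentiviruses and FOS was the least abundant member. RefSeq promoter windows (GRCh38.p14) were matched by symbol for 7 of the 10 genes, and FOSL1, BATF3 and MAFK had none. MAFF had 2 windows, of which the second held GC boxes only among the motifs below. A member is counted if any of its windows holds the motif, whereas the shares over all genes are per window. The 250 bases before the transcription start are printed 5′ to 3′, with capitals for the core TGACG of the cAMP response element, the pattern TGANNTCA that covers the cAMP response element, the CCAAT box and the TATA box TATAAA, on either strand.
JUND (chr19:18281623-18281872, minus strand): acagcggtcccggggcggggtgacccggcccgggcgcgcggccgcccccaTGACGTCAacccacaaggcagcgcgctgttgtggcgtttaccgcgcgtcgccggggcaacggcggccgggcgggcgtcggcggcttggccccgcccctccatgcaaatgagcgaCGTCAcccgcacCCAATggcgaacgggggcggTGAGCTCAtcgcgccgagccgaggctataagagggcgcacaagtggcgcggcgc
JUN (chr1:58784048-58784297, minus strand): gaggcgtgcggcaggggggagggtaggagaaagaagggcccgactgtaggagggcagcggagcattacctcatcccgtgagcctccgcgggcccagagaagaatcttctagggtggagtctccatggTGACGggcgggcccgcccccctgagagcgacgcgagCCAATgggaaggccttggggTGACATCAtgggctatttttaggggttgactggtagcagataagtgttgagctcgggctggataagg
JUNB (chr19:12791236-12791485, plus strand): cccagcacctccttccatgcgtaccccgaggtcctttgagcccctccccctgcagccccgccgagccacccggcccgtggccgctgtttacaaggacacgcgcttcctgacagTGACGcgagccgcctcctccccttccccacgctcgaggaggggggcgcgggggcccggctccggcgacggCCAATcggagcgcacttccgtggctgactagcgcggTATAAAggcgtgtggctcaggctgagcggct
FOS (chr14:75278578-75278827, plus strand): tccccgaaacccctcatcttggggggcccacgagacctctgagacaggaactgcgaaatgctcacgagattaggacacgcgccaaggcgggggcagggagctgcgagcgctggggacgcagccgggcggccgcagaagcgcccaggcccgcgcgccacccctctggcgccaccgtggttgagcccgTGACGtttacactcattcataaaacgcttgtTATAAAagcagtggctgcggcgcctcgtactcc
The core TGACG was present in all 7 matched members, against 21.2% of 35116 windows over all genes. Matches may overlap, since each full TGACGTCA holds the core on both strands. The full cAMP response element stood in 2 members, against 1.65% of all windows. It lay at -200 to -193 from the start in JUND and at -54 to -47 in the first window of MAFF. JUN carried the variant TGACATCA at -67 to -60, and 3 of the 7 members held the wider pattern TGANNTCA (10.1% of all windows), which JUND held again as TGAGCTCA at -54 to -47. The strict AP-1 site TGANTCA was found in 0 of the 7 (6.57% of all windows). The CArG box, the binding sequence of the serum response factor, was also found in 0 of the 7 (1.16%). Only these 250 bases were searched, so nothing is shown about sites farther upstream. A GC box, GGGCGG on either strand, was in 6 of the 7 (42.6% of all windows) and occurred at 5 places before JUND. JUNB, FOS and FOSB had a TATA box, at -31, -33 and -30, against 10.7% of all windows. These are matches of letters and not measured binding sites.

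FOSL1 was the most abundant member in every library. FOSL1 (chromosome 11, 65892049 to 65900545, minus strand, hg38 as for all genes below) had 599.5, 546 and 666 TPM in the PRDM16 libraries, against 632, 558 and 555.5 TPM in the NC libraries. The groups overlapped, with the highest and the lowest library both given the PRDM16 lentivirus. Averaged over the 6 libraries its level was 593 ± 48.4 TPM (SD, n = 6), above 98.5% of the 15381 genes tested, whose median was 12.0 TPM. FOSL2 (chromosome 2, 28392855 to 28417317, plus strand) had 55.7, 55.6 and 65.95 TPM in PRDM16 libraries and 68.96, 57.4 and 62.0 TPM in NC libraries. Its groups overlapped as well, and it ranked sixth of the members by mean TPM.

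FOSB and FOS were at the bottom of the family. FOSB (chromosome 19, 45467996 to 45475179, plus strand) had 4.02, 4.89 and 4.38 TPM in PRDM16 libraries, against 4.54, 4.41 and 4.10 TPM in NC libraries, which overlapped. FOS (chromosome 14, 75278828 to 75282230, plus strand), the founding Fos gene, had 1.77, 1.09 and 2.09 TPM in PRDM16 libraries, against 2.00, 1.24 and 2.62 TPM in NC libraries. These rest on 25 to 66 counts per library, and the second library was the lowest in both groups. FOSL1 exceeded FOS 386 ± 99.9-fold in PRDM16 libraries and 325 ± 118-fold in NC libraries (SD, n = 3 each), on the TPM scale.

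The Jun genes lay close together, below FOSL1. JUND (chromosome 19, 18279694 to 18281622, minus strand), the Jun gene usually least dependent on stimulation, had 209.7, 197.5 and 195 TPM in PRDM16 libraries, against 169.5, 139 and 144 TPM in NC libraries. Every PRDM16 library stood above every NC library, as in 4.62% of all tested genes. JUNB (chromosome 19, 12791486 to 12793315, plus strand), a Jun protein with weaker activation than JUN, had 151, 143 and 160.1 TPM in PRDM16 libraries, against 164.5, 132 and 121 TPM in NC libraries. The first NC library was the highest of the 6, so the groups overlapped. JUN (chromosome 1, 58780791 to 58784047, minus strand), the founding Jun gene, had 103, 114 and 131 TPM in PRDM16 libraries, against 136, 121 and 134 TPM in NC libraries. The first 2 PRDM16 libraries were the lowest, and the third lay within the NC range. The listed length of each of the 3 Jun genes equals its span, so none of them has an intron in the authors' annotation.

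MAFF was expressed at the level of JUN. MAFF (chromosome 22, 38201994 to 38216511, plus strand) had 123, 103 and 126.5 TPM in PRDM16 libraries, against 131, 97.8 and 99.2 TPM in NC libraries. MAFK (chromosome 7, 1530702 to 1543043, plus strand) had 24.3, 22.6 and 25.8 TPM in PRDM16 libraries, against 26.6, 19.2 and 20.6 TPM in NC libraries. In both small MAF genes the first NC library was the highest of all 6 and the second NC library the lowest. BATF3 (chromosome 1, 212686417 to 212699943, minus strand) had 8.38, 7.84 and 8.19 TPM in PRDM16 libraries, against 8.32, 6.23 and 7.30 TPM in NC libraries, which overlapped in this unit. Reads of overlapping genes on the other strand cannot be told apart, since the strand setting of the counting is not given. MAFK overlaps LOC100128653 and TMEM184A, which had 12 to 45 and 57 to 152 counts per library, against 600 to 1475 for MAFK. FOSL2 overlaps FLJ31356, with 3 to 26 counts against 3804 to 8688.

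The order of mean TPM over all libraries was FOSL1, JUND, JUNB, JUN, MAFF, FOSL2, MAFK, BATF3, FOSB and FOS. Ranges overlapped between JUND and JUNB, between JUNB and JUN and between JUN and MAFF, so the order within these pairs is not set beyond the spread of the libraries. The range of JUND, 139 to 209.7 TPM, lay wholly above those of JUN and MAFF, which reached 136 and 131 TPM. JUND exceeded JUNB in 6 of 6 libraries, JUNB exceeded JUN in 5 of 6 and JUN exceeded MAFF in 5 of 6. At every other step the ranges did not overlap, and the gap was widest between FOSL1 and JUND, at 3.37-fold. The lengths used for TPM cover all listed exons of a gene (8787 bases for FOSL2, 1857 for FOSL1), so a gene with long exons that these cells do not use would be set too low.

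**Figure D1:**
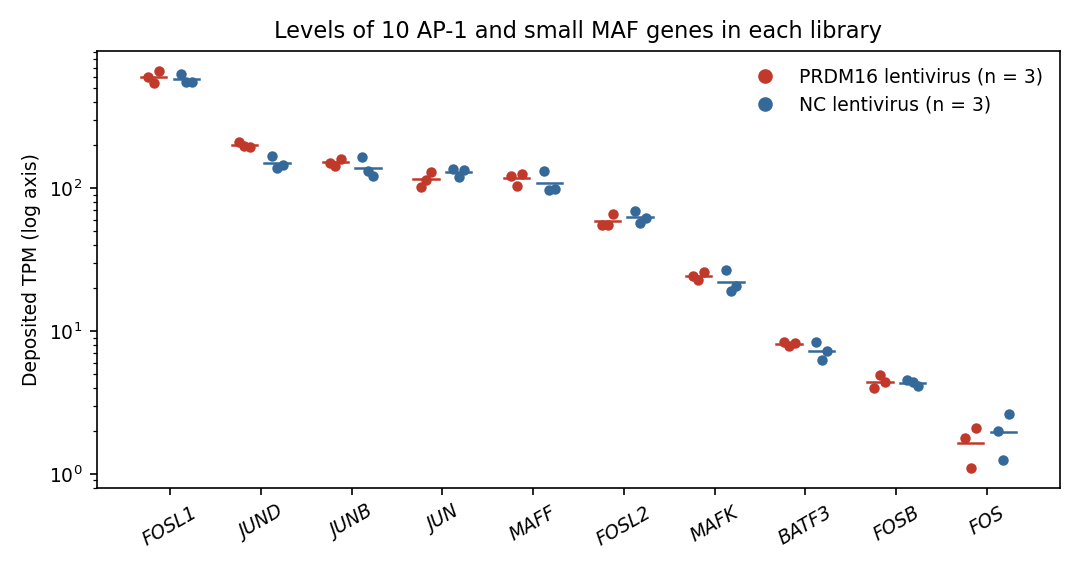
Deposited TPM of the 10 genes in each of the 6 libraries on a log axis, ordered by mean level, with PRDM16 lentivirus on the left and NC lentivirus on the right of each gene. Points are libraries and bars are group means (n = 3). FOSL1 stands alone at 546 to 666 TPM, FOS lies at 1.09 to 2.62 TPM, and JUND is the member whose groups do not overlap. Of all tested genes, 4.62% were likewise higher without overlap in PRDM16 libraries.

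The Fos transcripts were almost all FOSL1. It made up 90.7%, 89.9% and 90.2% of the summed TPM of the 4 Fos genes in PRDM16 libraries, against 89.3%, 89.9% and 89.0% in NC libraries. The means, 90.3 ± 0.416% in PRDM16 and 89.4 ± 0.439% in NC libraries (SD, n = 3 each), differed by 0.862 percentage points, and the closest libraries of the groups by less than the rounding. FOSL2 supplied most of the rest, with 8.84 ± 0.368% in PRDM16 and 9.64 ± 0.366% in NC libraries. FOS and FOSB together stayed near 1%, with at most 0.419% for FOS and 0.805% for FOSB in any library. Summed over the genes, Fos transcripts exceeded Jun transcripts 1.43 ± 0.0926-fold in PRDM16 libraries and 1.55 ± 0.0419-fold in NC libraries, with overlap. Without FOSL1 this ratio was 0.139 ± 0.00886 in PRDM16 and 0.165 ± 0.00650 in NC libraries, without overlap. How often such ratios of other genes separate the groups was not tested. All 10 genes together held 0.114% to 0.139% of the TPM of a library.

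The Jun transcripts were shared more evenly, and their balance differed between the lentiviruses. JUND made up 45.2%, 43.4% and 40.1% of the Jun TPM in PRDM16 libraries, against 36.1%, 35.5% and 36.1% in NC libraries. JUN made up 22.2%, 25.1% and 26.95% in PRDM16 libraries, against 28.9%, 30.8% and 33.5% in NC libraries. Neither of these shares overlapped between the groups, with JUND larger and JUN smaller in PRDM16 libraries. How often shares or ratios of other genes separate the groups was not tested, while 21.9% of single genes did not overlap in TPM. The share of JUNB was 32.4 ± 0.795% in PRDM16 and 33.0 ± 2.38% in NC libraries (SD, n = 3 each), which overlapped. JUND exceeded JUN 2.04-, 1.73- and 1.49-fold in PRDM16 libraries and 1.25-, 1.15- and 1.08-fold in NC libraries. A ratio within a library does not depend on a single scaling factor for that library, but the genes differ in GC content, with 69.7% for JUND and 56.7% for JUN. The log2 fold change of JUND exceeded that of JUN by 0.59 in edgeR, by 0.47 to 0.70 with single libraries left out and by 0.30 with the length and GC trend of each library removed. The ratio shows unequal levels without saying which of the genes changed. The ratio of the small MAF genes did not separate the groups, with MAFF 4.84 ± 0.253 times MAFK in PRDM16 libraries and 4.95 ± 0.151 times in NC libraries.

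**Figure D2:**
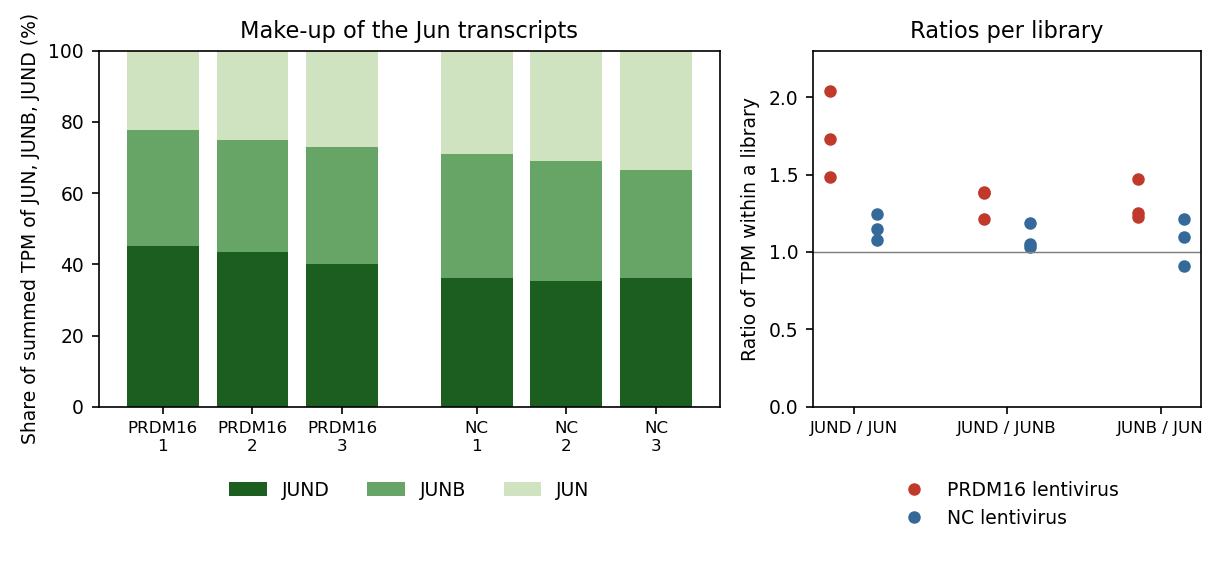
Left, share of the summed TPM of JUND, JUNB and JUN in each library, in percent, with the 3 PRDM16 libraries left of the 3 NC libraries. Right, ratios of TPM between the Jun genes, with 1 point per library. JUND takes 40.1% to 45.2% with PRDM16 lentivirus and 35.5% to 36.1% with NC lentivirus, and the JUND to JUN ratio is 1.49 to 2.04 with PRDM16 and 1.08 to 1.25 with NC lentivirus.

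The question of the study was which transcripts differ when PRDM16 is overexpressed in high glucose. Since the family was chosen with this contrast known, its fold changes are a description and support nothing by themselves. All 10 members passed the filter on low counts. In edgeR's quasi-likelihood test with Benjamini-Hochberg adjustment over 15381 genes, 0 of the 10 passed an adjusted p of 0.05, where 0.065% of all genes passed (0.0585% higher and 0.0065% lower with PRDM16). DESeq2 called 1 member, JUND, and limma-voom called 0. At an unadjusted p under 0.05 there were 2 members, JUND and JUNB, against 16% of all genes. The log2 fold change of JUND was 0.55 ± 0.12 (SE), with 149 ± 14.6 CPM in PRDM16 and 102 ± 12.9 CPM in NC libraries (CPM, counts scaled to library size with TMM factors and not to gene length, SD, n = 3 each). Its adjusted p was 0.0992 in edgeR and lay between 0.00253 and 0.748 over 14 alternatives. It passed in 4 of them, DESeq2 (0.0117), no count filter (0.00253), numbered listings summed (0.0447) and without NC library 3 (0.0261), and was highest with the length and GC trend removed. Leaving out single libraries moved its log2 fold change to between 0.47 and 0.64.

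The other members had smaller log2 fold changes on this scale. They were 0.30 ± 0.19 (SE) for BATF3, 0.27 ± 0.13 for MAFK, 0.26 ± 0.12 for JUNB, 0.24 ± 0.13 for MAFF and 0.19 ± 0.12 for FOSL1. FOSB stood at 0.17 ± 0.16, FOSL2 at 0.04 ± 0.12, JUN at -0.03 ± 0.11 and FOS at -0.11 ± 0.30. The sign for FOS turned with single libraries, from -0.38 without NC library 2 to 0.20 without NC library 3, and those of JUN and FOSL2 also changed sign when 1 library was left out. Without NC library 2 the values were 0.17 for BATF3, 0.15 for MAFK and 0.14 for MAFF, and without NC library 1 they were 0.42 for MAFK, 0.39 for MAFF and 0.39 for JUNB. FOSB was at 0.08 without PRDM16 library 2. The median of the members was 0.21 (0.14 without NC library 2), beside -0.02 over all genes tested, with 8 of 10 members above 0 against 46.9% of all genes. Groups did not overlap in 2 members in scaled CPM, JUND and BATF3, both higher with PRDM16, as in 12.2% of all genes, and 0 members were lower, as in 8.77%. In TPM 1 member, JUND, was higher without overlap, as in 4.62% of all genes, and 0 were lower, as in 17.3%. The median log2 ratio of mean TPM over all tested genes was -0.16, so levels in TPM lie lower in PRDM16 libraries than scaled CPM does.

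Base composition moved with these values. Members are short and rich in G and C, with a median length of 2286 bases against 4059 over the tested genes and a median GC content of 59.7% against 50.2%. JUND has 69.7% GC, more than 99.7% of the tested genes with a value, followed by MAFK at 65.2% and JUNB at 64.9%. In 5 equal bins by GC content, the median log2 fold change of all genes was -0.21 in the lowest and 0.24 in the highest, which begins at 59.0% GC and holds 6 of the 10 members. With the trend of length and GC removed from each library, the log2 fold change of JUND was 0.16 ± 0.069 (SE), that of JUNB -0.05, that of FOSL1 -0.04, that of MAFK 0.03 and that of MAFF 0.06. JUN was then at -0.14 ± 0.079 and FOS at -0.31 ± 0.31. The members' median was 0.03, beside 0.01 over all genes, with 6 of 10 above 0, and 0 members passed. BATF3, at 0.15 ± 0.14, was then close to JUND. Whether base composition or length accounts for the difference of JUND was not tested beyond this removal.

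**Figure D3:**
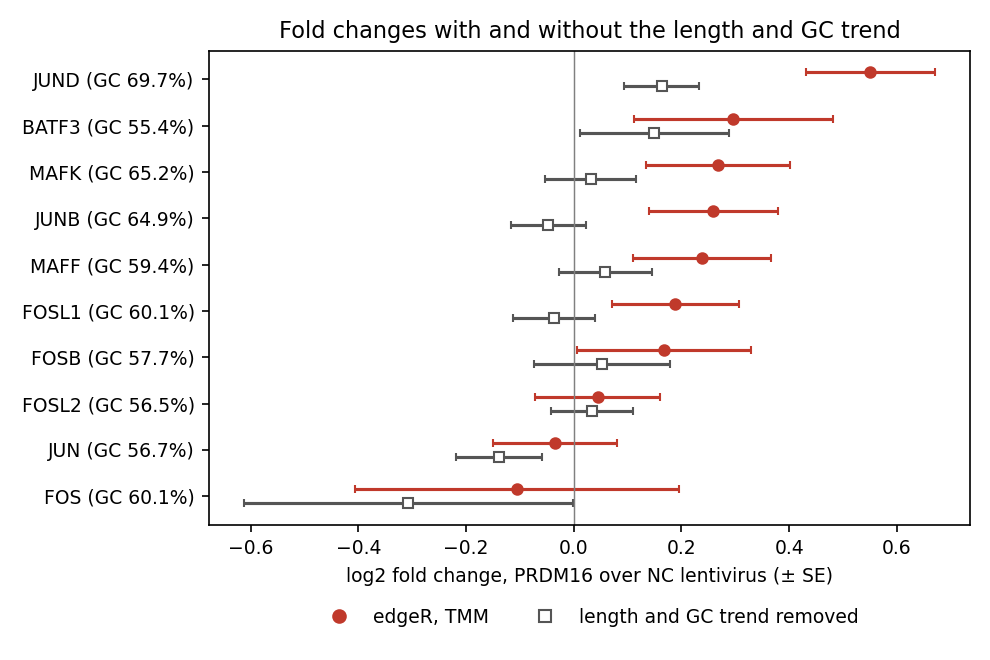
Log2 fold change of each member, PRDM16 over NC lentivirus, with its standard error, from edgeR with TMM factors (filled circles) and with the length and GC trend of each library removed (open squares). GC content stands beside each symbol. JUND goes with 0.55 on the first scale and 0.16 on the second, and the members' median with 0.21 and 0.03.

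The genes whose levels followed JUND most closely over the 6 libraries were GADD45GIP1, PPDPF and PPP1R14B. Likeness was the root mean square difference of log2 scaled CPM centred on each gene's own mean, and it was 0.0301, 0.0465 and 0.04998 for these genes. Their log2 fold changes were 0.50 ± 0.12, 0.56 ± 0.12 and 0.48 ± 0.12 (SE), and their GC contents 60.3%, 69.5% and 62.1%. Fold changes near that of JUND follow from this choice, since the same 6 libraries were used for it. Within the family BATF3 was nearest to JUND (0.146, rank 637 among the tested genes) and FOS farthest (0.428). For FOSL1 the nearest genes were GAK, NUP210 and CXCL16, at 0.0218, 0.0229 and 0.0230, and within the family FOSL2 (0.0875, rank 1268).

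Genes around the family were followed in 8 lists with 122 genes, of which 108 could be tested. In edgeR 0 of them passed, as in DESeq2 and limma-voom, with a smallest adjusted p of 0.298. At an unadjusted p under 0.05 there were 10, with 7 higher and 3 lower in PRDM16 libraries, against 9.23% and 6.76% of all genes in these directions. None of the lists is therefore given a direction, and the values below are levels and differences that did not pass. Where groups below do not overlap in TPM, 4.62% of all genes were higher and 17.3% lower without overlap in that unit. Mean TPM can be lower in PRDM16 libraries where the log2 fold change is above 0. This held for ATF4 (0.06), ATF3 (0.12), ELK1 (0.09), DUSP5 (0.11), CCN1 (0.03) and CCN2 (0.02).

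The 3 most abundant of the other dimer partners of the Jun proteins were DDIT3, ATF4 and ATF3, at levels near or above those of the Jun genes, whereas JDP2 and CREB5 averaged 12.4 and 9.34 TPM over all libraries. DDIT3, a stress factor that pairs with related proteins, was at 255 ± 41.7 TPM in PRDM16 and 249 ± 21.7 TPM in NC libraries (SD, n = 3 each, as below). ATF4, the main factor of the integrated stress response, was at 197 ± 11.1 TPM in PRDM16 and 208 ± 20.6 TPM in NC libraries, and ATF3, an immediate early partner, at 118 ± 6.03 TPM in PRDM16 and 120.1 ± 18.7 TPM in NC libraries. The smallest p belonged to CREB5 (log2 fold change -0.23 ± 0.13 SE, and -0.13 without NC library 2) and JDP2 (0.18 ± 0.12, and 0.09 without that library), a repressor of AP-1. The list had a median of 0.09 over 8 tested members of 9, beside -0.02 over all genes, and of 0.01 without NC library 2.

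Among other MAF and CNC factors, which can pair with MAFF and MAFK, 7 of 11 were tested. NFE2L1 was at 214 ± 29.2 TPM in PRDM16 and 244 ± 21.6 TPM in NC libraries, and MAFG, the third small MAF gene, at 51.2 ± 5.97 TPM in PRDM16 and 57.0 ± 8.06 TPM in NC libraries. NFE2L2, the regulator of antioxidant genes, had 46.9, 45.2 and 52.3 TPM in PRDM16 libraries, against 59.7, 71.1 and 52.9 TPM in NC libraries, without overlap. Its log2 fold change was -0.21 ± 0.11 (SE), and -0.12 without NC library 2. MAFA, at 1.54 ± 0.343 TPM in PRDM16 and 1.17 ± 0.472 TPM in NC libraries, had 0.52 ± 0.29. It rested on 15 to 57 counts per library with overlapping groups, and its value was 0.26 with the length and GC trend removed.

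The kinases that switch on Jun and Fos were tested in 19 of 20 cases, with 3 higher and 0 lower at an unadjusted p under 0.05 and a median of -0.04. These 3 were MAPK11, MAPK12 and MAP2K2. MAPK11, a p38 kinase, had 89.2, 79.8 and 84.4 TPM in PRDM16 libraries, against 79.1, 76.9 and 74.5 TPM in NC libraries, without overlap (0.28 ± 0.11, adjusted p = 0.298 in edgeR). MAPK12, another p38 kinase, was at 121 ± 4.69 TPM in PRDM16 and 109.9 ± 9.49 TPM in NC libraries, and MAP2K2, which activates ERK, at 175 ± 4.22 TPM in PRDM16 and 162 ± 17.8 TPM in NC libraries. With the length and GC trend removed their log2 fold changes were 0.02, -0.02 and 0.01. MAP2K3, which activates p38, was at 102 ± 3.56 TPM in PRDM16 and 97.3 ± 2.84 TPM in NC libraries.

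Factors that act at the FOS and JUN promoters had the lowest median of the 8 lists, -0.23 over 11 tested members, which was -0.06 with the length and GC trend removed and -0.09 without NC library 2. ELK4, a partner of the serum response factor, had 11.7, 10.4 and 14.5 TPM in PRDM16 libraries, against 15.3, 23.8 and 14.1 TPM in NC libraries. The second NC library stood far above the others, and the log2 fold change of -0.40 ± 0.16 (SE) was -0.17 without it. MRTFB, a coactivator of the serum response factor, was at 4.24 ± 0.384 TPM in PRDM16 and 5.69 ± 1.10 TPM in NC libraries (-0.28, and -0.17 without that library). SRF itself was at 56.3 ± 5.52 TPM in PRDM16 and 55.6 ± 5.68 TPM in NC libraries, ELK1 at 94.5 ± 4.04 TPM in PRDM16 and 97.9 ± 6.52 TPM in NC libraries, and STAT3 at 154 ± 11.0 TPM in PRDM16 and 175 ± 1.65 TPM in NC libraries, without overlap in this unit. The groups of STAT3 overlapped in scaled CPM, with a log2 fold change of -0.04 ± 0.11 (SE).

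The MAP kinase phosphatases and brakes, which end the signal, had a median of 0.01 over 10 tested members of 13, and of -0.01 without NC library 2. DUSP1, an immediate early phosphatase of JNK and p38, was at 420.3 ± 20.9 TPM in PRDM16 and 384 ± 46.8 TPM in NC libraries (0.27 ± 0.12 SE, and 0.16 without NC library 2). DUSP5, a nuclear phosphatase of ERK, was at 177 ± 16.1 TPM in PRDM16 and 180.1 ± 12.9 TPM in NC libraries, and SPRED2 at 23.8 ± 2.28 TPM in PRDM16 and 27.2 ± 1.82 TPM in NC libraries. DUSP8 had 0.549 ± 0.164 TPM in PRDM16 and 0.421 ± 0.0891 TPM in NC libraries.

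Other immediate early genes had a median of 0.03 over 19 tested members of 21, and of -0.01 without NC library 2. The most abundant were CCN1, a secreted matrix protein, at 1561 ± 106 TPM in PRDM16 and 1682 ± 176.5 TPM in NC libraries, and CCN2 at 451 ± 50.8 TPM in PRDM16 and 489 ± 4.43 TPM in NC libraries. KLF6, a zinc finger factor, had the smallest p, with 82.5 ± 15.5 TPM in PRDM16 and 109 ± 15.96 TPM in NC libraries (-0.26 ± 0.12 SE, -0.18 without NC library 2 and -0.31 with the length and GC trend removed). MCL1, a survival factor, was at 193.5 ± 16.9 TPM in PRDM16 and 240.0 ± 29.1 TPM in NC libraries. Its groups did not overlap in this unit but overlapped in scaled CPM. Its log2 fold change was -0.17 ± 0.12 (SE), -0.11 without NC library 2 and -0.07 with the length and GC trend removed. IER2 was at 105 ± 8.09 TPM in PRDM16 and 100.4 ± 9.78 TPM in NC libraries.

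Genes known as AP-1 targets had a median of -0.01 over 23 tested members of 26, with 11 above and 12 below 0. MMP1, MMP3 and MMP10, collagenase and stromelysin genes with well studied AP-1 sites, were too low to test. The abundant ones were FN1, fibronectin, at 2306 ± 294 TPM in PRDM16 and 2679 ± 291 TPM in NC libraries, and HMGA1 at 1891 ± 98.0 TPM in PRDM16 and 1691 ± 205 TPM in NC libraries. TIMP1, an inhibitor of metalloproteinases, had 219.6, 226 and 224.5 TPM in PRDM16 libraries, against 206, 202.5 and 206 TPM in NC libraries. Its groups did not overlap and its libraries varied little, but its log2 fold change of 0.26 ± 0.11 (SE) did not pass (adjusted p = 0.298 in edgeR) and was 0.07 with the length and GC trend removed.

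Genes of JUN turnover and its cofactors had a median of -0.03 over 11 tested members. TRIP6, a zyxin family coactivator, was at 565.5 ± 17.4 TPM in PRDM16 and 532.5 ± 28.6 TPM in NC libraries, and COPS5, first described as a JUN coactivator, at 73.3 ± 4.61 TPM in PRDM16 and 82.4 ± 8.13 TPM in NC libraries. TRIP6 had a log2 fold change of 0.23 ± 0.12 (SE), and -0.07 with the length and GC trend removed.

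**Figure D4:**
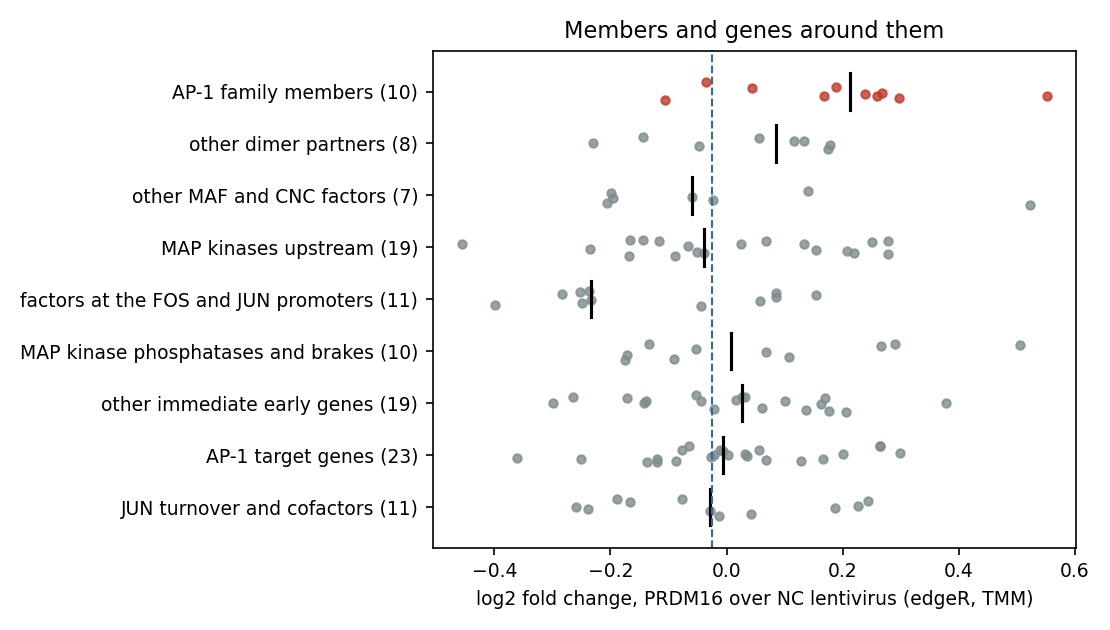
Log2 fold change, PRDM16 over NC lentivirus, of the 10 members (top row) and of the tested genes in 8 lists around them, with the number tested beside each name. Black bars are medians and the dashed line is the median of all genes tested, -0.02. The members' median is 0.21, that of the factors at the FOS and JUN promoters -0.23, and that of AP-1 target genes -0.01.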

How the data were processed

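Per the labels' protocols, polyadenylated RNA was selected with oligo(dT) beads and reverse transcribed from random hexamers. For each library the authors deposited a table of raw read counts per gene and TPM, per the file headers, on hg38, per the submitters' processing notes. Aligner, counting tool, strand setting and annotation release: not given in the sources used here. TPM recomputed from counts and listed lengths was checked against the deposited TPM. The lines of 7 genes were broken and were rejoined. Libraries held 20147135 to 41280350 counts, so 3 counts stand for 0.0727 to 0.149 CPM, counting error only. No 2 libraries lay within sampling noise (chi-square per degree of freedom 9.1 or more).

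Groups came from the titles. Levels and shares use the deposited TPM. The contrast of the lentiviruses was fitted in R 4.3.3 by edgeR 4.0.16 with its quasi-likelihood test (robust, TMM, minimum count of 10 and total of 15), which tested 15381 genes, and the step was tested on simulated data. Those counts had a common dispersion for all genes, no GC trend and no library standing apart, so they do not test the fit under these features. limma 3.58.1 (voom), DESeq2 1.42.0, other filters and scaling, single libraries left out, a replicate block, and offsets from natural splines (5 degrees of freedom) of length and GC content, found for 90.3% of the tested genes, were alternatives. A standard error is the log2 fold change over the root of F. GC content is the median over GENCODE transcripts of a name.

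The members and lists were chosen with earlier results of these data known. From each list the text names the 3 genes with the highest mean TPM, the 2 with the smallest p and any that passed. A few genes that this rule or the marker lists hold are not reported here.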

Additional observations from a re-analysis of the deposited data

How the results depend on the processing

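The number of genes past the threshold, 10 in edgeR (9 higher and 1 lower), was 44 with DESeq2, 107 with no count filter, 6 with the stricter filter, 5 with the length and GC trend removed, 18 with numbered listings summed, 8 with DESeq2 size factors, and between 7 and 173 with single libraries left out, with 20 without PRDM16 library 1, 59 without PRDM16 library 2 and 173 without NC library 3 (59 higher and 114 lower). Without NC library 2 the calls were 3 higher and 6 lower. Members past it numbered 0 in edgeR and 1, JUND, with DESeq2, with no count filter and with numbered listings summed, and between 0 and 1 with single libraries left out, where JUND passed without NC library 3. List genes past it numbered 0 and between 0 and 1 with single libraries left out, where ELK4 passed without NC library 3. The members' median log2 fold change, 0.21, lay between 0.14 and 0.32 with single libraries left out and was 0.03 with the length and GC trend removed. From CPM, which is not scaled for length, JUND held 37.2% of the Jun counts in PRDM16 and 29.98% in NC libraries, and FOSL1 67.5% of the Fos counts in PRDM16 and 65.4% in NC libraries. The cause of these differences was not tested. With single libraries left out the TPM shares of JUND lay between 41.7% and 44.3% in PRDM16 and between 35.8% and 36.1% in NC libraries, and those of FOSL1 between 90.0% and 90.4% in PRDM16 and between 89.2% and 89.6% in NC libraries. Deviations of same-numbered libraries did not go together (r across genes 0.0945, -0.104 and -0.131), and different-numbered libraries had -0.0922 to 0.204. The labels state no pairing, and these values cannot show whether libraries were prepared in pairs. With the replicate block 10 genes passed (6 higher and 4 lower), 0 of them members or list genes, and the members' median was 0.22. FOS was tested on 25 to 66 counts per library and did not enter the stricter filter or get an adjusted p in DESeq2, so small differences in it were not detectable at this depth.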
